A study of Gallus gallus with 24 samples.

Results

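The collagens, laminins and matrix proteins of the broiler ileum were followed as RNA in 4 groups of birds. Members were chosen by name and by mean level over all birds, outside the Z and W chromosomes. They were the genes with a collagen symbol (COL, a number, A, a number) or a laminin symbol (LAMA, LAMB or LAMC and a number), together with FN1, SPARC, DCN, LUM, POSTN, FBN1, ELN, NID1, NID2 and BGN. Of the 25339 genes in the table, 42 matched. A mean of at least 0.1 FPKM (fragments scaled to gene length and to a depth per bird, as deposited) over the 24 birds was then required. Of the 42, 41 passed, among 17288 genes of the whole table that did. They comprised 25 collagen genes, 9 laminin genes and 7 others. COL9A2, at a mean of 0.131 FPKM, was the member just inside the limit, and COL22A1, at 0.0073 FPKM, was the gene just outside it. FBN1, NID2 and BGN were not analysed here.

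Ileum was collected from Arbor Acres broilers at 14 d of age, 1 bird from each of 6 cages per group. CTL birds were fed the basal diet and were dosed orally with 0.5 mL of sterilized PBS on d 5. SP birds were fed the same diet and were dosed with 0.5 mL of S. pullorum (Salmonella pullorum, the agent of pullorum disease of chicks) on the same day. The other two groups received the same challenge on diets with 300 mg/kg of honokiol (SPH) or of magnolol (SPM), which are positional isomers of each other from magnolia bark. All challenged groups were kept apart from the CTL cages, so the challenge and the place of rearing cannot be told apart. Each bird was its own library, and each library is whole ileum and not sorted cells. The labels also call the source ileum flora and the extraction text speaks of retinas, while the tissue label is ileum and the enterocyte gene APOA1 stood at a mean of 5146 FPKM. Summed W chromosome transcripts separated 16 birds (512 to 633 FPKM) from 8 birds (at most 3.26 FPKM), and all 6 CTL birds, 3 SP, 3 SPH and 4 SPM birds had them. Reads on genes ran from 14393822 to 19435410 per bird, and the members took 0.623% to 1.23% of them.

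The extracellular matrix of the gut is laid down in layers. Fibrillar collagens, made mainly by fibroblasts and smooth muscle cells, form the tension-bearing fibres of the lamina propria, submucosa and muscle coat. Basement membranes are thin sheets of type IV collagen and laminin, joined by nidogen, that lie under the epithelium and around blood vessels, muscle cells and nerves. A laminin is a trimer of 1 alpha, 1 beta and 1 gamma chain, and its alpha chain largely sets which cells make it: in mammals LAMA3 belongs to epithelia, LAMA4 to vessels and muscle, and LAMA5 to many basement membranes. Other members decorate or link these sheets and fibres, as decorin and lumican do on collagen fibrils and type VI collagen does around cells.

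No member of the matrix set passed the limits (adjusted p under 0.05 in limma, with a log2 difference of more than 0.5 in size) in any of the 6 comparisons between groups, and 0.0% of all genes tested did. What the set showed was a shared order of group means. The SP mean was the lowest of the 4 groups in 31 of 41 members (in 31.7% of all genes tested), and the SPM mean was the highest in 27 of 41 (in 28.2% of all genes tested). By class, SP was lowest in 6 of 6 fibrillar collagens, 9 of 13 basement membrane genes and 16 of 22 other matrix genes. SPM was highest in 5 of 6, 11 of 13 and 11 of 22. Without each bird in turn, the first count ran from 28 to 32 and the second from 20 to 33, the lowest without SPM replicate 6. Many members varied together from bird to bird, so neither count stands for 41 separate observations. In a test of any difference among the 4 groups (limma, moderated F test), 2 members had an unadjusted p under 0.05, COL8A1 and COL13A1, where 8.69% of all genes did. The smallest adjusted p of a member in that test was 0.495. In whole tissue, fewer cells of a type and less RNA per cell cannot be told apart.

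The birds differed widely within their groups, and matrix genes varied together from bird to bird. The number of members above their median over the 24 birds was 10 to 36 in CTL birds, 6 to 22 in SP birds, 11 to 34 in SPH birds and 8 to 36 in SPM birds. No SP bird was high throughout, while each other group held at least 1 bird with more than 30 members above the median. In SPM, replicates 2, 5 and 6 had 33, 36 and 35 members above the median, and replicates 1, 3 and 4 had 10, 11 and 8, so the group mean lay between birds of opposite level. CTL birds were divided as well, with 36, 34 and 31 members in replicates 3, 4 and 5 and 10, 12 and 18 in replicates 1, 2 and 6. The median SD within groups was 0.33 on the log2 scale for the members and 0.30 for all genes tested. The share of variance lying between group means had a median of 16.4% for the members and 12.8% for all genes tested. This share is not corrected for the number of groups, so it stays positive even where groups do not differ.

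**Figure D1:**
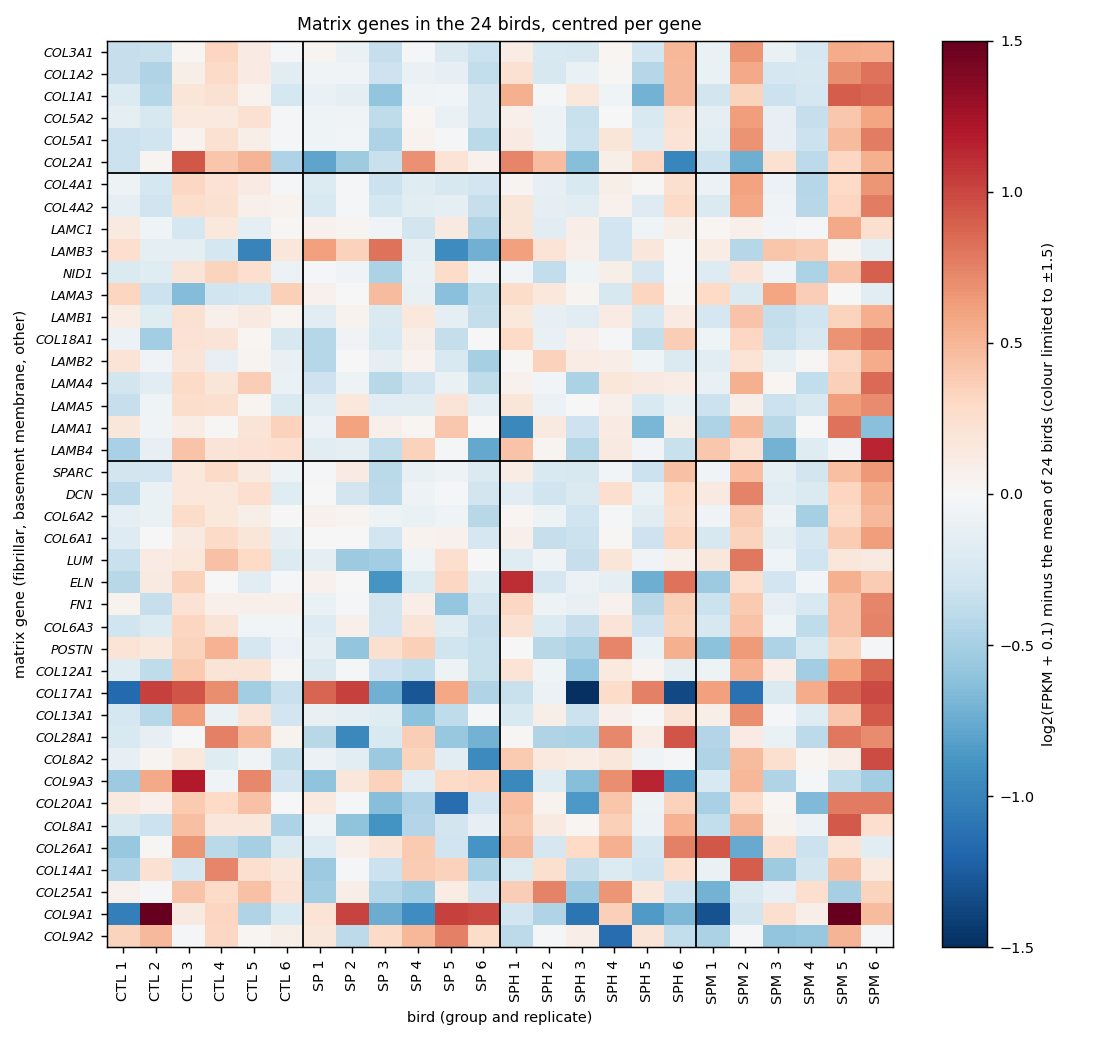
Level of the 41 matrix genes (rows, ordered by class and mean FPKM) in the 24 birds (columns, by group and replicate), as log2(FPKM + 0.1) minus the gene's mean over the birds. SPM replicates 2, 5 and 6 and CTL replicates 3 to 5 are red in most rows, SP birds are pale or blue in most rows, and LAMA3, LAMB3, COL17A1 and COL9A1 follow patterns of their own.

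Among the fibrillar collagens, COL3A1 (ENSGALG00000035584, chromosome 7, 618031 to 671774, minus strand), the chain of type III collagen found in pliable tissues such as gut and vessels, was the most abundant at a mean of 328 FPKM. COL1A2 (ENSGALG00000009641, chromosome 2, 23572966 to 23610978) and COL1A1 (ENSGALG00000041555, chromosome 27, 5538288 to 5555467), the chains of type I collagen, followed at 97.3 and 85.4 FPKM. The chains of type V collagen, which sit inside type I fibrils and limit their width, were lower, at 25.2 FPKM for COL5A2 and 14.9 FPKM for COL5A1. COL2A1, the cartilage collagen, was nearly absent at 0.236 FPKM.

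COL3A1 in single birds had a lowest, median and highest level of 251, 321 and 401 FPKM in CTL, 252, 286 and 329 in SP, 263, 301 and 452 in SPH, and 269, 382 and 508 in SPM. The means were 316 ± 57.4 FPKM (SD, n = 6), 287 ± 31.6, 322 ± 71.9 and 385 ± 107. The groups overlapped in every comparison, the SP birds lay closest together, and 3 SPM birds lay above every SP bird. Between SP and CTL the log2 fold change of COL3A1 was -0.12 (SE 0.17), with 5 of 6 SP birds below the CTL median. Between SPM and SP it was 0.38 (SE 0.17), with 5 of 6 SPM birds above the SP median, and neither the adjusted p of limma (0.276) nor the two-sided exact permutation test over birds (p = 0.0909) passed. For SPH against SP it was 0.15 (SE 0.17).

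COL1A1 followed the same order with more spread. Its lowest, median and highest levels were 61.0, 78.1 and 96.0 FPKM in CTL, 54.4, 75.5 and 79.7 in SP, 50.1, 86.0 and 119 in SPH, and 65.3, 86.0 and 154 in SPM. The SPH and SPM groups thus held both low birds and the highest birds. The log2 fold change of COL1A1 was -0.13 (SE 0.22) for SP against CTL, 0.26 (SE 0.22) for SPH against SP and 0.41 (SE 0.22) for SPM against SP. Its adjusted p values in limma were 0.930, 0.793 and 0.383. COL1A2, its partner in the type I trimer, had median levels of 92.1, 87.7, 91.7 and 114 FPKM in CTL, SP, SPH and SPM, and a log2 fold change of 0.41 (SE 0.18) between SPM and SP. All 6 SP birds were below the CTL median of COL1A2, yet the 2 groups overlapped.

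**Figure D2:**
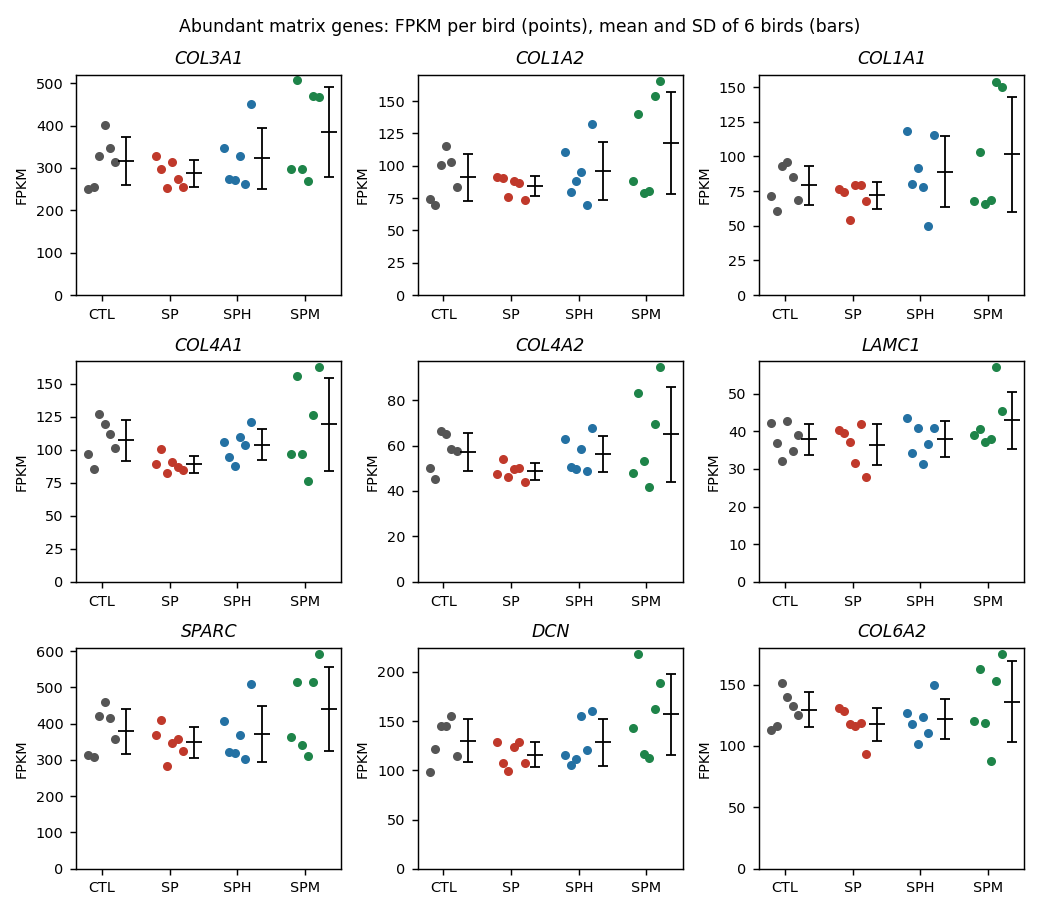
FPKM of the 3 most abundant members of each class in single birds (points, linear axis from 0) with the mean and SD of 6 birds per group (bars). In most panels the SP birds lie low and close together, and the SPM birds spread widest, with COL3A1 running from 269 to 508 FPKM in SPM.

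Collagen chains of 1 molecule stood in narrow proportions while their level varied. The COL1A1 to COL1A2 ratio was 0.874 ± 0.096 (SD over the 24 birds), with single birds from 0.714 to 1.07. The COL4A1 to COL4A2 ratio was 1.85 ± 0.098, a coefficient of variation of 5.30%, and COL6A2 stood at 1.93 ± 0.18 of COL6A1. After the group means were removed, COL1A1 and COL1A2 correlated across the 24 birds with r = 0.92 (rho = 0.92), COL1A1 and COL3A1 with r = 0.80 (rho = 0.83), and COL4A1 and COL4A2 with r = 0.96 (rho = 0.95). The adjusted p was at most 5.33e-05 for these 3 of 8 pairs (permutation test, 100000 permutations, smallest possible p 1e-05 before adjustment). Without the 2 birds farthest from the median, r was 0.91, 0.80 and 0.93. LAMB1 and LAMC1, the beta and gamma chains shared by most laminins, did not pass (r = 0.34, rho = 0.27, adjusted p 0.142 and 0.271, and r = 0.27 without 2 birds). Their LAMC1 to LAMB1 ratio was 1.51 ± 0.25, a coefficient of variation of 16.8%. It was 15.8% for the COL3A1 to COL1A1 ratio, chains of different molecules.

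Some neighbouring genes overlap in the table, and their reads may not be told apart, since the counting by strand is not given in the sources used here. COL4A1 and COL4A2 lie head to head on chromosome 1 with 281 bases in common, and COL5A2 and COL3A1 share 1749 bases on chromosome 7. The gene LAMB4 lies within the LAMB1 locus over 51937 bases on the same strand, so its 0.237 FPKM is uncertain.

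Among the basement membrane genes, the type IV collagens COL4A1 and COL4A2, which form the network of the sheet, also had their lowest mean in SP and their highest in SPM. COL4A1 (ENSGALG00000036798, chromosome 1, 140138678 to 140249096) had a lowest, median and highest level of 85.7, 107 and 127 FPKM in CTL, 82.4, 88.0 and 101 in SP, 87.6, 105 and 121 in SPH, and 76.3, 112 and 162 in SPM. All 6 SP birds were below the CTL median, 5 of 6 SPH birds were above the SP median, and the groups overlapped. SP differed from CTL by -0.26 (SE 0.14) on the log2 scale, and the exact permutation test gave p = 0.0281, without adjustment, against an adjusted p of 0.770 in limma. Between SPH and SP the difference was 0.22 (SE 0.14, exact permutation p = 0.0238, adjusted p in limma 0.718). Between SPM and SP it was 0.37 (SE 0.14, exact permutation p = 0.0866, adjusted p in limma 0.221).

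COL4A2 gave nearly the same picture, with log2 fold changes of -0.22, 0.20 and 0.36 (SE 0.15 each) in those comparisons. All 6 SPH birds lay above the SP median of COL4A2, but 3 of them overlapped the SP range. LAMC1 (ENSGALG00000004620, chromosome 8, 7848917 to 7898075), the common gamma chain, varied least of all members between birds (SD within groups 0.20). Its median levels were 37.9, 38.3, 38.8 and 39.9 FPKM in CTL, SP, SPH and SPM, and its log2 fold change between SPM and SP was 0.23 (SE 0.11). Without SP replicate 6 its small difference between SP and CTL of -0.06 became 0.01.

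The laminin alpha chains did not differ as a block. LAMA4, the vessel and muscle chain, had medians of 8.67, 6.78, 8.91 and 9.66 FPKM in CTL, SP, SPH and SPM, with a log2 fold change of 0.48 (SE 0.17, adjusted p in limma 0.178) between SPM and SP. LAMA5 stood at 3.85 FPKM with log2 fold changes of -0.04, 0.02 and 0.14 against standard errors of 0.17. LAMA1 was 0.44 lower in SPH than in SP on the log2 scale (SE 0.24) and 0.20 lower in SPM, opposite to the other basement membrane genes except NID1 in SPH, and neither passed.

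LAMA3 and LAMB3 are the alpha and beta chains of the epithelial laminin that anchors hemidesmosomes. They had log2 fold changes of 0.05 (SE 0.18) and 0.18 (SE 0.26) between SP and CTL, groups unlike in the W chromosome status of their birds. LAMB3 was at 41.2, 34.1 and 47.3 FPKM in SP replicates 1 to 3, which had no W chromosome transcripts, all above the CTL range of 13.3 to 31.9. It was at 24.1, 13.9 and 16.2 FPKM in SP replicates 4 to 6, which had them as every CTL bird did, all within that range. In SPH, LAMB3 was at 26.8 to 40.9 FPKM in birds without these transcripts and at 21.9 to 30.8 in birds with them. In SPM it was at 19.9 and 35.0 FPKM without them and at 24.2 to 35.8 with them, so the levels overlapped in both groups. A part of W chromosome status in LAMB3 was not tested. Among birds with W chromosome transcripts the differences were -0.23 (SE 0.22) for LAMA3 and -0.42 (SE 0.24) for LAMB3, and with a term for the transcripts both were -0.04 (SE 0.20 and 0.26), so the sign of either gene depended on these birds. Across the 24 birds LAMA3 and LAMB3 correlated with each other (r = 0.78, rho = 0.78, a pair chosen after its values were seen). With COL3A1 their correlations were -0.44 and -0.27, whereas SPARC, COL1A2, COL5A2 and COL5A1 had 0.95, 0.95, 0.93 and 0.91. Of the 40 other members, 26 had a correlation with COL3A1 above 0.5 and 5 had one below 0. These points share their libraries and the depth of each library, and the values with COL3A1 are given as a description.

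**Figure D3:**
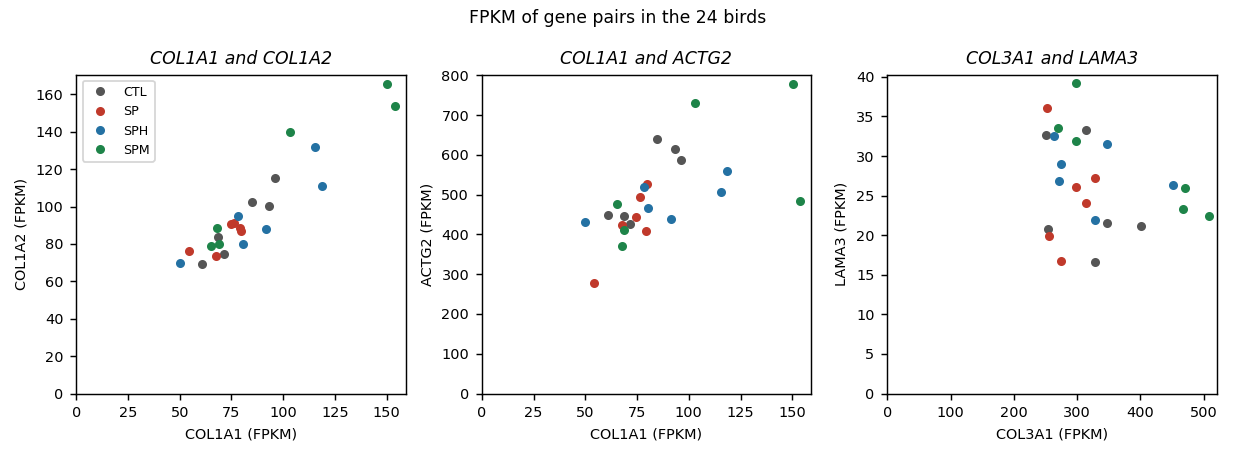
FPKM of gene pairs in the 24 birds, coloured by group: COL1A2 against COL1A1, the smooth muscle gene ACTG2 against COL1A1, and the epithelial laminin chain LAMA3 against COL3A1. The type I collagen chains lie on a line (r = 0.92 within groups), ACTG2 follows COL1A1 more loosely (r = 0.66), and LAMA3 tends downward with COL3A1 (r = -0.44).

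The other matrix genes held the most abundant member of all. SPARC (ENSGALG00000004184, chromosome 13, 13624036 to 13632278), a collagen-binding protein that aids fibril and basement membrane assembly, had a lowest, median and highest level of 308, 386 and 460 FPKM in CTL, 284, 353 and 410 in SP, 302, 345 and 510 in SPH, and 311, 439 and 592 in SPM. SP replicates lay within or below the CTL range and 3 SPM birds lay above it. The log2 fold change of SPARC was -0.11, 0.08 and 0.30 (SE 0.16 each) for SP against CTL, SPH against SP and SPM against SP, with an adjusted p of at least 0.374 in limma.

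DCN (ENSGALG00000011274, chromosome 1, 44050178 to 44202174) encodes decorin, a small proteoglycan on collagen fibrils. Its lowest, median and highest levels were 98.7, 133 and 155 FPKM in CTL, 99.1, 116 and 129 in SP, 106, 118 and 160 in SPH, and 112, 152 and 218 in SPM. All 6 SP birds were below the CTL median, and 4 SPM birds exceeded every SP bird. Between SPM and SP the log2 fold change of DCN was 0.40 (SE 0.15, exact permutation p = 0.039, adjusted p in limma 0.209). LUM, the related lumican, was 0.25 lower in SP than in CTL on the log2 scale (SE 0.16) and 0.32 higher in SPM than in SP (SE 0.16). Its difference between SP and CTL was -0.015 (SE 0.15) among birds with W chromosome transcripts and -0.16 (SE 0.17) with a term for them. COL6A2, a chain of the beaded filaments of type VI collagen at a mean of 126 FPKM, differed less, with log2 fold changes of -0.14, 0.05 and 0.18 (SE 0.13 each).

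Between SP and CTL, the comparison of the challenge, 35 of 41 members were lower and 6 higher, where 51.2% of all genes were lower. The median log2 fold change was -0.15 for the members and -0.00 for all genes. By class it was -0.13 for fibrillar collagens (0 of 6 higher), -0.12 for basement membrane genes (3 of 13 higher) and -0.19 for other matrix genes (3 of 22 higher). The members that were higher were LAMA3, LAMB3, LAMA1, COL26A1, COL9A1 and COL9A2, of which LAMA3, LAMB3 and COL26A1 were lower among birds with W chromosome transcripts. Among those birds 37 members were lower and 4 higher, and the fibrillar collagen COL2A1 was one of the higher (0.13, against -0.31 in all birds). With a term for the transcripts COL2A1 was at 0.06, and COL17A1 was at 0.14, against -0.10 in the fit without the term. At an unadjusted p under 0.05 with a log2 fold change below -0.5, 2 members were lower, COL20A1 and COL28A1, where 1.55% of all genes were. None was higher at these limits, where 1.03% of all genes were. The number of lower members ran from 33 to 38 without each bird in turn, while the count of 2 was 0 without CTL replicate 3 or CTL replicate 5, with a term for W chromosome transcripts, or with a pseudocount of 1.

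COL20A1, a minor fibril-associated collagen, was the member with the largest difference between SP and CTL. Its lowest, median and highest levels were 0.957, 1.13 and 1.33 FPKM in CTL and 0.379, 0.715 and 1.07 in SP. Of the SP birds, 5 of 6 lay below every CTL bird, and SP replicate 1 kept the groups overlapping. The difference was -0.62 (SE 0.27) on the log2 scale, with an exact permutation p of 0.0108 and an adjusted p of 0.767 in limma. The gene had 38 to 132 reads per bird.

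COL28A1, which in mammals surrounds peripheral nerves and glia, had a lowest, median and highest level of 1.67, 2.01 and 3.40 FPKM in CTL and 0.960, 1.38 and 2.57 in SP. Here 4 SP birds lay below every CTL bird and SP replicate 4 lay among the higher CTL birds. On the log2 scale the difference was -0.58 (SE 0.28, exact permutation p = 0.0476, adjusted p in limma 0.767). In SPH and SPM its medians were 2.07 and 1.99 FPKM, and all 6 birds of either group lay above the SP median. COL25A1, a membrane collagen of neurons, was also lower in SP, by a log2 fold change of -0.49 (SE 0.23, unadjusted p 0.0414), inside the limit on the fold change. All 6 enteric nerve and glia markers were lower in SP (median -0.18 on the log2 scale). Their summed level ran from 80.8 to 136 FPKM in CTL and from 76.3 to 134 in SP. Most of it came from CHGA, which enteroendocrine cells also express, at a mean of 96.5 FPKM, against 4.48 for TUBB3, the next. The sum thus does not stand for nerve and glia alone. The part of these markers in the COL28A1 and COL25A1 values was not tested.

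Between SPH and SP, the comparison of honokiol, 34 of 41 members were higher, where 51.6% of all genes were, and the median was 0.15 (0.01 for all genes). The classes were alike, with medians of 0.14, 0.15 and 0.15 for fibrillar collagens, basement membrane genes and other matrix genes. Past the unadjusted limits COL8A1 was higher (1.5% of all genes higher) and COL9A2 lower (2.55% of all genes lower). LAMB2, the beta chain of vessel, muscle and nerve basement membranes, was 0.26 higher (SE 0.12, unadjusted p 0.0433, adjusted p 0.551 in limma). Among the birds with W chromosome transcripts, 3 in either group, 27 of 41 members were higher, the median of the fibrillar collagens was -0.00 and COL1A1 was at -0.15.

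COL8A1 encodes a short-chain collagen of vessel walls and of the layer under the vascular endothelium. Its lowest, median and highest levels were 0.561, 0.797 and 1.15 FPKM in CTL, 0.391, 0.612 and 0.769 in SP, 0.758, 0.986 and 1.21 in SPH, and 0.604, 0.913 and 1.62 in SPM. Of the SPH birds, 5 of 6 lay above every SP bird, and SPH replicate 5, the lowest at 0.758, lay just under the highest SP bird. SPH differed from SP by 0.63 (SE 0.21) on the log2 scale (exact permutation p = 0.00433, adjusted p in limma 0.382). Between SPM and SP it was 0.61 (SE 0.21, exact permutation p = 0.0195, adjusted p in limma 0.181), and between SPM and SPH it was -0.02 with a 95% interval from -0.46 to 0.42. It was the member with the largest share of variance between groups, 38.8%, at 28 to 103 reads per bird. COL8A2, which joins it in the same lattice, was higher by 0.39 (SE 0.20) and 0.49 (SE 0.20) in these comparisons.

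COL9A2, a chain of the cartilage collagen IX, had 0 to 16 reads per bird. The medians in CTL, SP, SPH and SPM were 0.155, 0.168, 0.0947 and 0.0883 FPKM, and SPH replicate 4 was at 0, which at this depth allows up to 3 reads. The log2 fold change of -0.54 (SE 0.26, exact permutation p = 0.0476, adjusted p in limma 0.561) between SPH and SP depended on the treatment of low values, from -0.10 with a pseudocount of 1 to -1.23 with limma-voom on recovered reads. COL9A1, another chain of collagen IX, varied between birds by 42.7 times, from 0.0273 to 1.17 FPKM, with an SD within groups of 0.87.

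**Figure D4:**
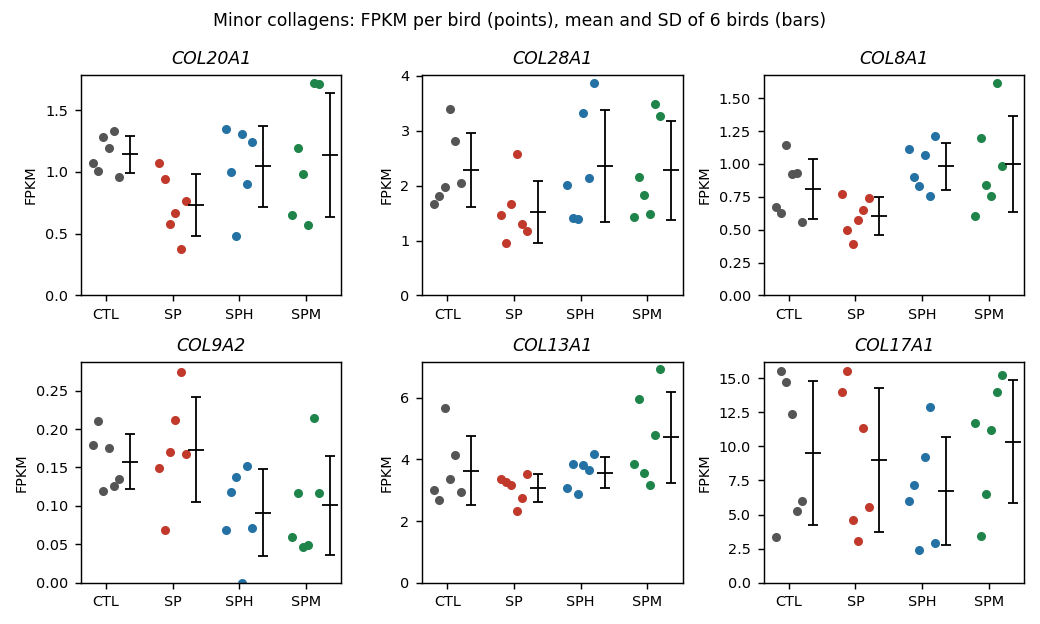
FPKM of the minor collagens named by their unadjusted p, and of COL17A1, in single birds (points, linear axis from 0) with the mean and SD of 6 birds per group (bars). For COL20A1, 5 of 6 SP birds lie below every CTL bird, for COL8A1, 5 of 6 SPH birds lie above every SP bird, and COL17A1 spreads from 2.39 to 15.5 FPKM with no group apart.

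Between SPM and SP, the comparison of magnolol, the median difference of the members was the farthest from 0 of the 6 comparisons. Of the 41 members, 37 were higher, where 51.9% of all genes were, with a median of 0.30 (0.01 for all genes). The fibrillar collagens had a median of 0.38 (6 of 6 higher), the basement membrane genes 0.24 (12 of 13) and the other matrix genes 0.28 (19 of 22). LAMA1, COL9A1, COL9A2 and COL9A3 were lower. Past the unadjusted limits 2 members were higher, COL13A1 and COL8A1, where 2.54% of all genes were, and none was lower, where 3.2% were. At an unadjusted p under 0.05 with no limit on the fold, 13 members were higher (6.67% of all genes) and 0 lower (8.73% of all genes), and none passed after adjustment, at a smallest adjusted p of 0.164 in limma. These 13 were COL3A1, COL1A2, COL5A1, COL5A2, COL4A1, COL4A2, LAMA4, LAMB2, DCN, COL12A1, COL13A1, COL8A1 and COL8A2.

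That count of 13 rested on single birds and on the scaling. It was 5 without SPM replicate 2 or without SPM replicate 6, 8 without SPM replicate 5 or SP replicate 3, 7 without SP replicate 6, 20 without SPM replicate 1 and 23 without SPM replicate 4. After quantile normalization 8 were higher and 1 lower, and 8 were higher in a fit of only the 2 groups compared. The number of higher members stayed at 35 to 37, and the median of all members at 0.21 to 0.39, without each bird in turn. Among the birds with W chromosome transcripts, 33 members were higher with a median of 0.36.

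COL13A1, a transmembrane collagen of cell contacts and of the neuromuscular junction in mammals, had the smallest unadjusted p of the set. Its lowest, median and highest levels were 2.67, 3.18 and 5.66 FPKM in CTL, 2.33, 3.22 and 3.53 in SP, 2.87, 3.74 and 4.17 in SPH, and 3.17, 4.33 and 6.94 in SPM. All SPM birds except replicate 4 lay above every SP bird. Magnolol birds differed from SP birds by a log2 fold change of 0.56 (SE 0.19, exact permutation p = 0.0152, adjusted p in limma 0.164). COL12A1, a collagen on the surface of type I fibrils, was higher by 0.47 (SE 0.18), with 4 of 6 SPM birds above every SP bird.

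**Figure D5:**
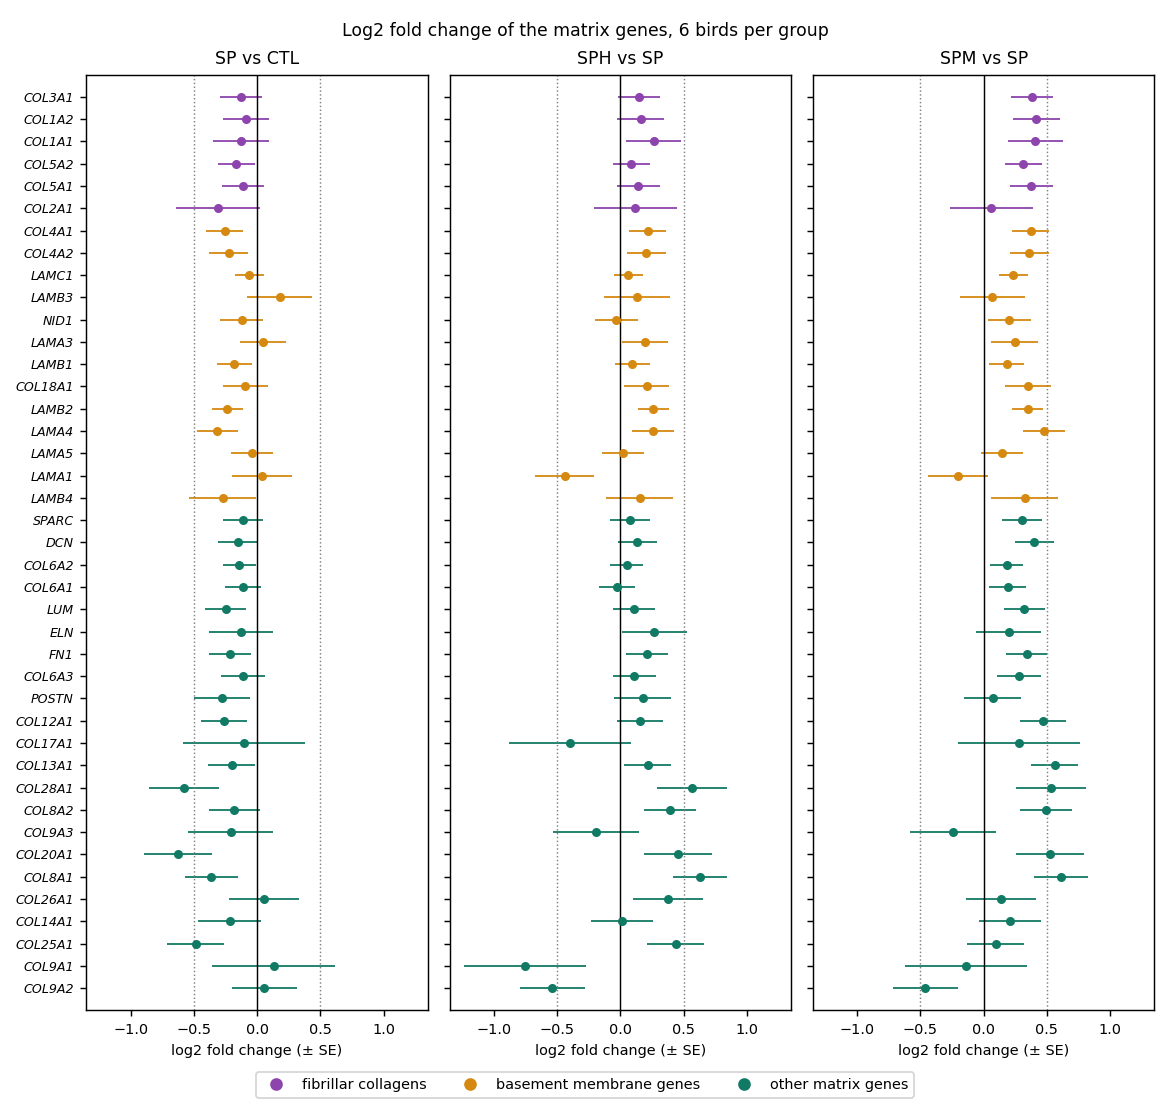
Log2 fold change of each matrix gene on the log2(FPKM + 0.1) scale (points) with its standard error (bars) in 3 comparisons that share the SP birds. Dotted lines mark 0.5 and -0.5. Most points lie left of 0 for SP against CTL, and right of 0 for SPH and SPM against SP, where 34 and 37 of 41 members are higher, and COL17A1 and the minor collagens have the widest bars.

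The 3 comparisons share the 6 SP birds, so a low SP mean enters each of them. Against CTL the medians were nearer to 0. SPH stood at a median of -0.04 from CTL, with 14 of 41 members higher (47.7% of all genes), and SPM at 0.12 from CTL, with 31 of 41 higher (48.8% of all genes). No member had an unadjusted p under 0.05 in either comparison, where 1.84% and 2.46% of all genes were higher and 1.8% and 2.62% lower at that p. Single SPM birds moved the second of these. Without SPM replicate 6 the median for SPM against CTL was 0.03, and without SPM replicate 4 it was 0.20, with 6 members higher at an unadjusted p under 0.05 (2.54% of all genes).

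Honokiol and magnolol, which carry their hydroxyl and allyl groups in a different arrangement on the same biphenyl frame, were given at the same dose and sampled at the same age. Between SPM and SPH, 32 of 41 members were higher in SPM (51.2% of all genes), with a median of 0.16, and 0 had an unadjusted p under 0.05 (2.24% of all genes higher, 2.33% lower). The difference was 0.23 for COL3A1, with a 95% interval from -0.11 to 0.58, and 0.15 for COL1A1, from -0.31 to 0.61. It was 0.16 for COL4A1, from -0.14 to 0.46, and 0.27 for DCN, from -0.05 to 0.58. The largest was 0.68 for COL17A1, from -0.33 to 1.69. For COL13A1 it was 0.35, from -0.04 to 0.73. No difference between the isomers passed, and for COL3A1, COL1A1, COL4A1, DCN and COL13A1 the interval holds a difference as large as that of SPM from SP. The median of 0.16 was 0.05 without SPM replicate 6 and 0.24 without SPM replicate 4, where 9 members were higher at an unadjusted p under 0.05 (3.01% of all genes).

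COL17A1, the transmembrane collagen of hemidesmosomes, was the most variable member between birds (SD within groups 0.90). Its ranges overlapped throughout, from 3.33 to 15.5 FPKM in CTL, 3.06 to 15.5 in SP, 2.39 to 12.9 in SPH and 3.43 to 15.2 in SPM. ELN, the elastic fibre protein at 47.3 FPKM, also varied more than most, by 4.01 times between birds, and showed differences of -0.13, 0.27 and 0.20 (SE 0.26 each) in the SP against CTL, SPH against SP and SPM against SP comparisons. FN1, fibronectin, at 29.2 FPKM, was at -0.22, 0.21 and 0.34 (SE 0.17 each), and POSTN, periostin, at 12.5 FPKM, was at -0.28, 0.18 and 0.07 (SE 0.22 each).

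Markers of the cells that lay down matrix also had lower means in SP than in CTL and higher means in SPM than in SP. Of 11 smooth muscle markers, led by ACTG2 at 496 FPKM, 11 were lower in SP than in CTL (median log2 fold change -0.32), and 11 were higher in SPH and in SPM than in SP (0.21 and 0.26). Their summed level ran from 1988 to 2859 FPKM in CTL, 1338 to 2159 in SP, 1908 to 2391 in SPH and 1675 to 3304 in SPM. Fibroblast markers were lower in SP in 6 of 6 genes (median -0.13), higher in SPH than in SP in 5 of 6 (0.04) and higher in SPM than in SP in 6 of 6 (0.19), and their sums ran from 111 to 154, 93.0 to 134, 107 to 146 and 100 to 182 FPKM. Endothelial markers were lower in SP in 6 of 6 (median -0.19) and higher than in SP in 6 of 6 both in SPH (0.12) and in SPM (0.30), with sums from 81.4 to 118, 77.9 to 90.7, 78.0 to 111 and 69.2 to 146 FPKM. Against CTL, SPM was lower in 7 of 11 smooth muscle markers (median -0.08). It was higher in 4 of 6 fibroblast markers (0.07) and 6 of 6 endothelial markers (0.12). SPH was lower than CTL in 10 of 11 smooth muscle (-0.12), 6 of 6 fibroblast (-0.05) and 3 of 6 endothelial markers (-0.04).

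Leukocyte markers went the other way. All 8 were higher in SP than in CTL (median 0.37) and all 8 were lower in SPH and in SPM than in SP (-0.57 and -0.53), with sums from 247 to 483, 334 to 539, 251 to 381 and 215 to 359 FPKM in CTL, SP, SPH and SPM. No marker of these lists was at 0 in all birds. Enterocyte markers were divided in SP, with 5 of 9 higher (median 0.00), and 6 of 9 were higher in SPH (0.05) and 7 of 9 in SPM (0.27) than in SP. Their sums ran from 12105 to 19258 FPKM in CTL, 10616 to 23270 in SP, 13394 to 19192 in SPH and 13838 to 25239 in SPM. HBA1, a globin gene of red blood cells and the 1 gene tested of 5 listed for them, was at a mean of 243 FPKM, with ranges of 46.5 to 447 in CTL, 94.7 to 311 in SP, 120 to 340 in SPH and 105 to 563 in SPM. It differed by 0.83 (SE 0.45) between SPM and SP, and by 1.07 (SE 0.45, unadjusted p 0.0273, adjusted p 0.931 in limma) between SPM and CTL. At an unadjusted p under 0.05 in limma, 8 of 8 leukocyte markers were lower in SPH and in SPM than in SP (5.62% and 8.73% of all genes). Between SP and CTL, 4 of 8 leukocyte markers were higher (2.87% of all genes) and 5 of 11 smooth muscle markers lower (3.31%). In SPH and SPM against SP, 1 and 2 of 11 smooth muscle markers were higher (3.21% and 6.67%). Of 6 endothelial markers, 2 were higher in SPM than in SP and 0 in SPH. Of 9 enterocyte markers, 1 was lower in SPH and 1 higher in SPM than in SP. Of 6 enteric nerve and glia markers, 1 was lower in SP than in CTL, and 1 and 2 were higher in SPH and SPM than in SP. At that p 0 fibroblast markers differed. None of these marker genes passed the adjusted limits, and their part in the matrix differences was not tested.

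Within groups, COL1A1 correlated with ACTG2 across the 24 birds (r = 0.66, rho = 0.71, adjusted p 0.0009 and 0.00042, permutation test, r = 0.69 without 2 birds). It did not pass with the leukocyte gene PTPRC (r = -0.27, rho = -0.20, adjusted p 0.231 and 0.341, r = -0.23 without 2 birds) or the enterocyte gene FABP1 (r = -0.23, rho = -0.22, adjusted p 0.273 and 0.341, r = -0.13 without 2 birds). COL4A1 with the endothelial gene PECAM1 had r = 0.62 (rho = 0.42, adjusted p 0.00202 and 0.0701, permutation test). It rested on 2 birds, since r was 0.36 without them.

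Genes that process collagen had smaller median differences than the members. Of 25 such genes, SP had the lower mean than CTL in 21 (median -0.09), 16 were higher in SPH than in SP (0.08) and 20 were higher in SPM than in SP (0.15). The most abundant were P4HB, PPIB and SERPINH1, helpers of collagen folding in the endoplasmic reticulum, at 558, 491 and 108 FPKM. PCOLCE2, an enhancer of procollagen cleavage at 4.29 FPKM, had the largest differences of the list, with log2 fold changes of -0.63 (SE 0.22), 0.83 (SE 0.22) and 0.68 (SE 0.22) in the SP against CTL, SPH against SP and SPM against SP comparisons. Its adjusted p values in limma were 0.767, 0.379 and 0.158. CRTAP, a prolyl hydroxylase helper, and P3H3, of the prolyl hydroxylase family, were 0.41 (SE 0.14) and 0.46 (SE 0.16) higher in SPM than in SP. P3H2 and PCOLCE also had an unadjusted p under 0.05 in limma there. In all, 5 of the 25 were higher and 0 lower at that p (6.67% and 8.73% of all genes). Whatever the p, 51.2% of all genes were lower in SP than in CTL. Likewise 51.6% and 51.9% were higher in SPH and in SPM than in SP.

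Genes of matrix breakdown, listed together with the inhibitors TIMP2, TIMP3, TIMP4 and RECK, were divided. Of the 23 genes of this list, inhibitors included, SP had the lower mean than CTL in 17 (median -0.08). Of them, 12 were higher in SPH than in SP (0.01) and 15 in SPM than in SP (0.08). MMP2, a gelatinase made by stromal cells, was 0.38 higher in SPM than in SP (SE 0.16, unadjusted p 0.0295), beside the protease inhibitors TIMP3 (0.21, SE 0.08) and RECK (0.30, SE 0.12). MMP27 was lower there, at -0.70 (SE 0.31). In that comparison 3 of the 23 genes were higher and 1 lower at an unadjusted p under 0.05 in limma (6.67% and 8.73% of all genes).

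Among 16 matrix receptors, 10 were lower in SP than in CTL (median -0.11) and 11 were higher in SPM than in SP (0.11). At an unadjusted p under 0.05 in limma, 2 receptors were higher and 1 lower in SPM than in SP (6.67% and 8.73% of all genes). ITGB1, the beta chain of most collagen and laminin receptors, at 126 FPKM, was at -0.20 (SE 0.09) between SP and CTL and at 0.21 (SE 0.09) between SPM and SP. ITGA7, the laminin receptor chain of muscle, was at -0.45 and 0.43 (SE 0.16 each). Between SPH and SP, 9 of the 16 receptors were higher and 7 lower (median 0.07). Among the lower ones were ITGAV and CD44, at -0.30 (SE 0.12) and -0.35 (SE 0.16). In that comparison 1 receptor was higher and 2 were lower at an unadjusted p under 0.05 in limma (3.21% and 5.62% of all genes).

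Of 13 genes of TGF-beta and related growth factor signalling, which drives matrix synthesis in fibroblasts, 8 were lower in SP than in CTL (median -0.01) and 11 were higher in SPM than in SP (0.17). TGFB3 was 0.36 higher there (SE 0.13, unadjusted p 0.0138) and SMAD3, a signal transducer of the pathway, 0.16 higher (SE 0.07, unadjusted p 0.0372). In that comparison 2 of the 13 were higher and 0 lower at an unadjusted p under 0.05 in limma (6.67% and 8.73% of all genes). No gene of these 4 pathway lists passed the adjusted limits in any comparison.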

How the data were processed

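Ileum libraries of 24 birds, 6 per group, were analysed. Per the methods and labels, RNA was extracted with TRIzol, libraries were sequenced on an Illumina platform, and the authors deposited FPKM per gene, beside each gene's length and position. The submitters' processing notes name Bowtie 0.12.2 and the builds GRCg6a and mm8 without roles, and coordinates are those of the deposited table. FPKM was taken as deposited. Each FPKM multiplied by gene length was a whole multiple of 1 step per bird for 440917 of 440917 values above 0. The tolerance was 0.001 reads and the largest deviation 9.84e-05, and the steps gave the reads per bird. The depth that a step implies was not the number of reads on genes. It was 15516381 against 16813645 in SPH replicate 6, and 21449929 against 19300455 in SP replicate 5. How this depth was set was not tested, and every fit except that after quantile normalization keeps it.

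limma 3.58.1 (R 4.3.3) was fitted to log2(FPKM + 0.1) of the 17288 genes with a mean of at least 0.1 FPKM, with 1 mean per group, all 24 birds and a variance trend. Fold changes are on the log2(FPKM + 0.1) scale, which understates those of low genes. p values were adjusted by Benjamini-Hochberg over all genes within a comparison. Calls needed both an adjusted p under 0.05 and a log2 difference of more than 0.5 in size. In this limma fit 0 genes of the whole table passed in any comparison. The authors, with DESeq2 and limits of the same size, reported differentially expressed genes for SP against CTL and for SPH and SPM against SP. The reason for this difference was not tested. The unadjusted limits use the p before adjustment. Exact permutation tests ran over all 924 regroupings of 6 birds against 6, with a smallest p of 0.00216, and are not adjusted. The fit was tested on simulated data, with genes drawn independently and changes larger than any of the members, in genes of at least 1 FPKM. That run does not cover small differences shared by correlated genes. Cages are the replicates, and p values cover the spread between their birds.

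Members and lists were chosen with earlier results of these data known. Values per bird are given for the 3 most abundant members of each class and for members past the unadjusted limits (up to 3 per direction and comparison). The other genes given with values were chosen after their values were seen. The list for red blood cells left 1 tested gene, and the list for cartilage left 3, whose medians were -0.31, 0.25 and -0.08 in SP against CTL, SPH against SP and SPM against SP. Alternatives were other pseudocounts and filters, only the 2 groups compared, a replicate block and the W chromosome status. Further ones were quantile normalization, limma-voom on the recovered reads, and leaving out each bird. The limma-voom fit used the depth implied by the deposited FPKM, so it is no separate check of the scaling between birds. The removal of the fold limit and the pair LAMA3 with LAMB3 were added after seeing the data. No sequence of a member is shown, since no table of sequences was used here.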

Additional observations from a re-analysis of the deposited data

How the results depend on the processing

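Under every alternative run, 0 members passed the adjusted limits in any comparison, and class medians kept their sign except in SPH against CTL, in the fibrillar collagens of SPH against SP (-0.00 in birds with W chromosome transcripts) and in the other matrix genes of SPM against CTL (-0.00 without CTL replicate 1). In SPH against CTL the median of the fibrillar collagens, 0.027, was -0.12 in birds with W chromosome transcripts and -0.016 after quantile normalization. Counts past the unadjusted limits were small and moved. For SP against CTL the count of 2 was 0 with a pseudocount of 1 or a term for W chromosome transcripts, and 1 with no filter, after quantile normalization or in birds with W chromosome transcripts. For SPH against SP the count of 2 was 0 with a pseudocount of 1 or a mean of at least 1 FPKM, 1 with only the 2 groups compared and 4 in birds with W chromosome transcripts. For SPM against SP the count of 2 was 0 with a pseudocount of 1, 1 with a mean of at least 1 FPKM, 4 after quantile normalization, 6 in birds with W chromosome transcripts and 13 with no fold limit, and that 13 was 8 after quantile normalization or with only the 2 groups compared. The count of 0 was 2 for SPM against SPH in birds with W chromosome transcripts and 1 for SPH against CTL with limma-voom. Leaving out each bird in turn gave 0 to 3 for SP against CTL, 1 to 5 for SPH against SP, 1 to 9 for SPM against SP (lowest without SPM replicate 2 or 6, highest without SPM replicate 4), 0 to 2 for SPH against CTL and 0 to 1 for SPM against CTL. The causes were not tested.

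A few genes had the other sign where the difference was small. In birds with W chromosome transcripts, SPH against SP was -0.027 for COL1A2, -0.15 for COL1A1 and -0.057 for SPARC. Leaving out each bird in turn gave -0.11 to 0.010 for LAMC1 in SP against CTL, and in SPH against SP -0.0092 to 0.12 for LAMC1, -0.021 to 0.13 for SPARC and -0.017 to 0.098 for COL6A2. The negative values in SPH against SP came without SP replicate 6 for LAMC1 and COL6A2 and without SPH replicate 6 for SPARC and COL6A2, and the positive one for SP against CTL without SP replicate 6. With the replicate number as a block, the medians of the fibrillar collagens stayed at -0.13 for SP against CTL and 0.38 for SPM against SP. The count past the unadjusted limits for SPM against SP was 3 with the block, and the other counts were as without it. For SPH against SP the block left 0 members lower at an unadjusted p under 0.05 in limma, so COL9A2 was no longer past the limits. Birds with the same number did not deviate together (r from -0.20 to 0.24 over 36 pairs, 1 pair above 0.1). For 1 of the 24 birds, the mean correlation with birds of other groups was highest for its own number. Depth limits the minor collagens, since 5 members had fewer than 10 reads in some bird.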

Other observations

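In 14 genes of the matrix set, each checked in 4 groups for a bird far from the others of its group (Dixon's test, 56 groups), none stood apart.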
